A study of Homo sapiens with 4 samples.

Results

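Histones are the proteins around which DNA is wound, and the values below are those of the human histone genes in K562-U2AF1-S34F cells, a line derived from the erythroleukemia line K562 that overexpresses the S34F mutant of the splicing factor U2AF1. The members were the named entries of the deposited gene table whose symbol matched the naming patterns of histone genes and which held a protein-coding transcript. They were 65 of 62778 named entries. RNA was sequenced from 2 libraries of cells given the solvent DMSO and 2 libraries of cells given SF1-8 at 30 μM for 48 h. SF1-8 is a compound reported to inhibit the contact of a domain of U2AF1 with its partner U2AF2 in a binding assay. All 4 libraries came from the same engineered line, so none was from cells without the mutant. The labels do not say whether the libraries of a group came from separate cultures, and the p-values measure only the spread between these libraries.

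Most core and linker histones are made from replication-dependent genes, which sit in clusters and lack introns, and whose mRNAs accumulate while DNA is copied. These mRNAs usually end in a short stem-loop that is bound by the protein SLBP, rather than in a poly(A) tail. Replacement histones are encoded outside the clusters, mostly by genes with polyadenylated mRNAs, and are made throughout the cell cycle. The RNA here was total RNA depleted of ribosomal RNA, so mRNAs without a poly(A) tail could enter the libraries.

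Of the 65 entries, 61 were replication-dependent, 52 of them at chr6:25726063-27959051 and 9 at chr1:149782689-149887965 (GRCh38). The other 4 were replacement genes of the linker histone, such as H1-10. The table carries the newer symbols of the remaining replacement histones, which the patterns do not match, and 12 further entries (such as H2AX, H2AZ1 and H3-3A) were added by the older symbols of their transcripts, giving 16 replacement entries. After edgeR's filter on low counts, 51 of the 61 replication-dependent entries and 11 of the 16 replacement entries were tested. The 12 entries of the 65 that did not pass had counts of at most 17, and 3 of them were at 0 in every library. An entry can hold more than 1 gene, as 7 of the 65 did, and its value then belongs to all of its genes together.

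The end of the mRNA is the feature that sets the replication-dependent genes apart from nearly all other genes. Among 19669 coding genes of GENCODE version 29, 52 (0.264%) had a coding transcript with the motif of the histone stem-loop on its own strand, searched as 16 bases made of the arm GGNNCT, the loop TTTN and the arm AGNNCC. Among the 66 genes of the replication-dependent entries, 65 had a transcript with a single exon. For 32 of the 66 the annotated transcript ran at least 40 bases past the stop codon, and 27 of these 32 held the motif. The other genes have models that end at or near the stop codon, where the motif could not be looked for. The stretches below, 5′ to 3′ with the motif in capitals, are shown because they cover H2A, H2B, H3 and H4 genes described below and the single replacement histone that carries the motif, H2AX.
H2AC18 (chr1:149842218-149842243, minus strand): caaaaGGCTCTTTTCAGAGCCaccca
H2AC6 (chr6:26124664-26124689, plus strand): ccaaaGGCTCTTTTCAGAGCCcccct
H2BC4 (chr6:26123467-26123492, minus strand): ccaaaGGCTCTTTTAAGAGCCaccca
H3C10 (chr6:27810511-27810536, plus strand): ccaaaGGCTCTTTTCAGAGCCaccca
H4C11 (chr6:27824454-27824479, plus strand): taaaaGGCCCTTTTCAGGGCCaccct
H4C14 (chr1:149833027-149833052, plus strand): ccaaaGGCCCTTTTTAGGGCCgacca
H2AX (chr11:119094893-119094918, minus strand): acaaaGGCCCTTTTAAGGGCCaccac
The form printed for H2AC18 was the commonest and occurred in 15 of the 27 genes. Of the 16 replacement histones, H2AX alone held the motif, although 15 of them had at least 40 annotated bases past the stop codon. H2AC6, H2BC4 and H2BC5 each also had a transcript with 2 exons and no stem-loop, and both of the longer transcripts of H2BC11 lacked it too.

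Promoters of the histone classes differed in their short motifs. RefSeq promoters (GRCh38.p14, from 250 bases before the start to 50 after it) were found for 61 of the 66 replication-dependent genes and 14 of the 16 replacement genes. Searched on both strands, TATAAA was in 68.9% of the 61 and in 13.99% of all 27305 genes with a promoter. The sequence CCAAT was in 85.2% of the 61, 85.7% of the 14 replacement promoters and 39.7% of all genes. The octamer ATTTGCAT was in 42.6% of the 61 and in 2.19% of all genes. It was in 73.3% of 15 H2A and 82.4% of 17 H2B promoters, in 9.09% of 11 H3 promoters, and in none of the 6 H1 and 12 H4 promoters. CCAAT was in 25.0% of the H4 promoters and in every H1, H2A, H2B and H3 promoter found. The 150 bases before the start are printed for 5 genes, with these motifs in capitals on either strand, because their RNA values are compared below. The windows of H2BC11 and H2AC11 overlap, since these genes start back to back.
H2BC11 (chr6:27132796-27132945, minus strand): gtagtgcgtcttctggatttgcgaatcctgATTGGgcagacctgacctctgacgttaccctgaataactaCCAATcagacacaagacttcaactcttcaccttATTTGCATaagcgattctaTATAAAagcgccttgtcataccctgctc
H2AC11 (chr6:27132893-27133042, plus strand): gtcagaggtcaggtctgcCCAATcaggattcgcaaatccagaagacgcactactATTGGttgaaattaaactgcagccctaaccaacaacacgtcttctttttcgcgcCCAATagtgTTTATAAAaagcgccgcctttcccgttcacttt
H2AC6 (chr6:26124022-26124171, plus strand): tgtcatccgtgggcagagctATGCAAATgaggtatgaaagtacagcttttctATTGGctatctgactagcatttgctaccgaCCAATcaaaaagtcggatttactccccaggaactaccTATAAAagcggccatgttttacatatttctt
H4C4 (chr6:26189113-26189262, minus strand): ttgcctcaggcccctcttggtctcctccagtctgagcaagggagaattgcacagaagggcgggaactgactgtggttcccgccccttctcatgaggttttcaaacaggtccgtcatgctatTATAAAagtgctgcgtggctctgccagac
H2AX (chr11:119095466-119095615, minus strand): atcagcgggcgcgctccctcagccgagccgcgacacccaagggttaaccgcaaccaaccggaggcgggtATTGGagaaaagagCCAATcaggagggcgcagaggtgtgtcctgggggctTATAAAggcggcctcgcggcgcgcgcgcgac
In these windows TATAAA began 28 bases before the start in H2BC11, 29 in H4C4 and 31 in H2AC11, H2AC6 and H2AX. A second copy on the other strand of H2AC11 overlaps the first. These are matches of letters, and no binding was measured.

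The counts summed to between 45522905 and 67554610 per library, the lowest being DMSO 1. Over the 26167 entries tested, 11 (0.042%) passed an adjusted p of 0.05 between SF1-8 and DMSO in the edgeR quasi-likelihood fit with Benjamini-Hochberg correction. All 9 erythroid markers listed for K562, in 7 entries, passed the filter. The 11 stromal markers were low, with a summed FPKM of 14.03 and 7.41 in the DMSO libraries against 4.1 and 1.10 in the SF1-8 libraries, and LUM was at 0 in both SF1-8 libraries. Summed FPKM was between 3.85 and 5.45 for 3 T cell markers, 0.354 and 0.502 for 3 B cell markers and 4.23 and 5.84 for 3 monocyte markers. Of these markers, 6 of the stromal list were lower with SF1-8 at an unadjusted p under 0.05 (2.54% of all entries tested were). The part of these differences in the histone values was not tested.

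Histone mRNA was abundant in every library. Entries of replication-dependent histones held 0.859% (DMSO 1) and 0.968% (DMSO 2) of the counts of named entries in the control libraries, and 1.04% (SF1-8 1) and 1.01% (SF1-8 2) in the treated ones. Their summed FPKM (fragments scaled by gene length and library depth, so that levels can be compared between genes) was 7437 and 8963 in the first and second DMSO library, and 9536 and 9155 in the first and second SF1-8 library. DMSO 1 was thus the lowest library, and the other DMSO library was closer to the SF1-8 libraries than to DMSO 1. In bulk RNA, fewer cells in S phase and less histone mRNA per cell cannot be told apart. The 16 replacement entries held 0.168% and 0.176% of the counts in the DMSO libraries and 0.157% in each SF1-8 library. The range within the replication-dependent group was wide, from under 1 FPKM for H3C6, H2BC3 and H1-6 to about 1000 FPKM for H2BC12. Of the 51 entries tested, 45 had a mean of at least 10 FPKM.

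**Figure D1:**
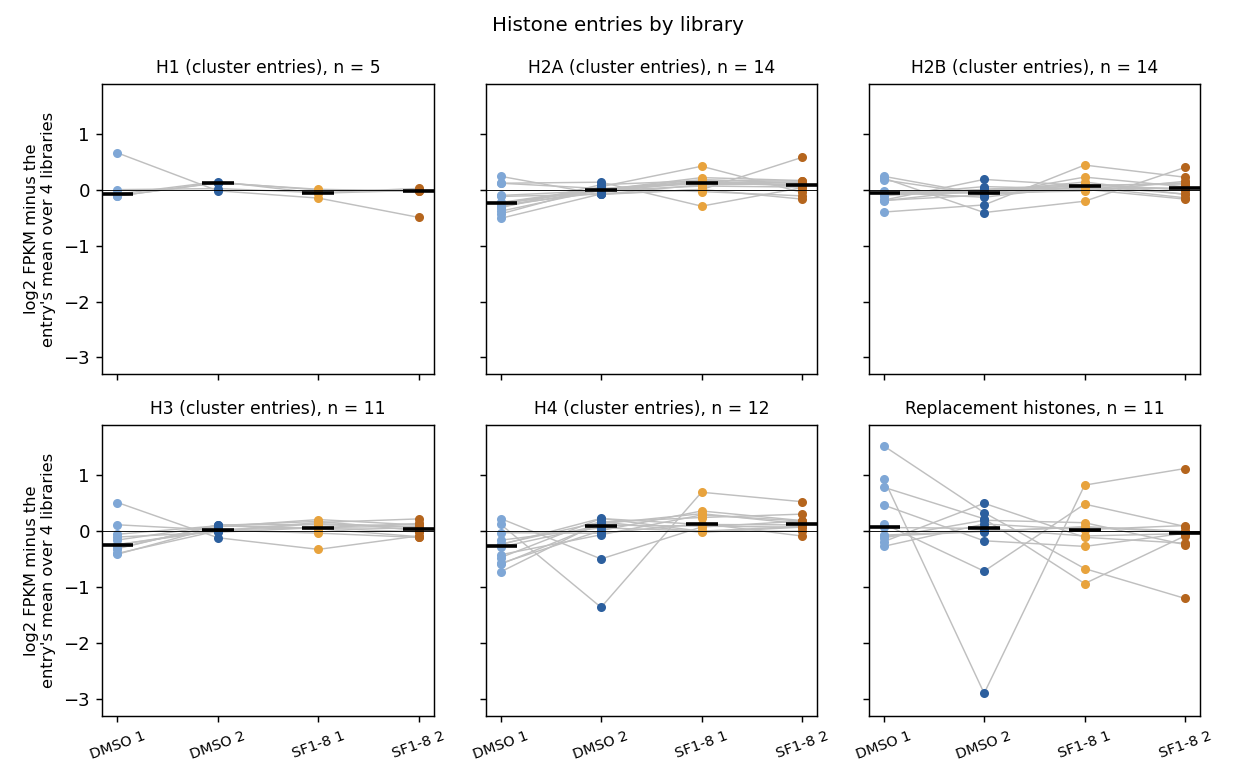
Log2 FPKM of each tested histone entry minus its mean over the 4 libraries (y axis) in each library (x axis), by histone class for the replication-dependent entries and for the replacement histones, with grey lines joining the values of an entry and black bars at the medians. The medians of H2A, H3 and H4 are lowest in DMSO 1, at -0.24, -0.24 and -0.26, while H1 and H2B differ less between libraries and the replacement median is 0.070 in DMSO 1.

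The main comparison asked whether SF1-8 was accompanied by other levels of histone mRNA than DMSO, and whether the replication-dependent genes differed from the replacement genes in this. Replication-dependent entries were slightly higher with SF1-8, and their median log2 fold change was 0.20 over the 51 entries (range -0.62 to 1.10). The median of the 11 replacement entries was -0.055 and that of all 26167 entries -0.011. Of the 51 entries, 42 were higher and 9 lower with SF1-8 in the fitted value, where 48.4% of all entries tested were higher. Both SF1-8 libraries were above both DMSO libraries in FPKM for 23 of the 51 (14.2% of all entries), both were below for 3 (20% of all entries), and the groups overlapped for 25. The clustered genes can share regulation and near-identical sequence, so these counts are not counts of independent genes.

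No histone entry passed the threshold. In the edgeR quasi-likelihood fit with Benjamini-Hochberg correction, 0 of the 51 replication-dependent and 0 of the 11 replacement entries had an adjusted p under 0.05, and adjusted p ran from 0.533 to 0.999 over the 51. At an unadjusted p under 0.05 in that fit were 6 of the 51 replication-dependent entries, all higher with SF1-8, and no replacement entry. Over all entries, 1.78% were higher at that level and 4.33% differed in either direction. Of 4 tested cluster entries outside the 51, described apart below, 1 was lower at that level (2.54% of all entries were). DESeq2 gave 1 histone entry at an adjusted p under 0.05, where it called 164 of all 26167 entries. On log2 FPKM limma gave 0, among the histones as over all entries.

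**Figure D2:**
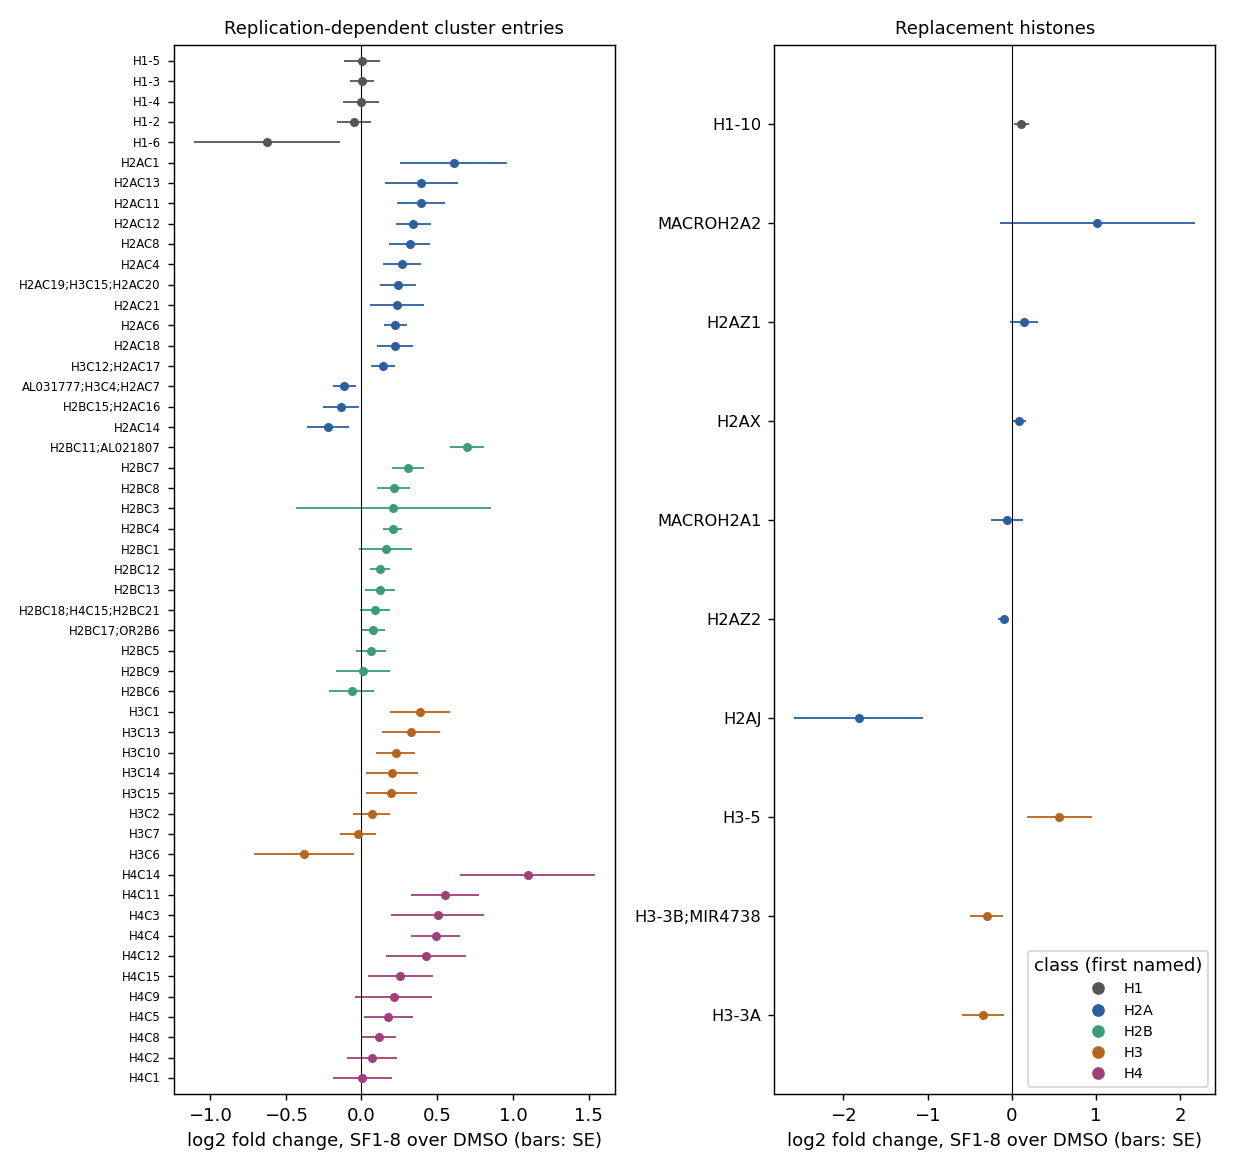
Log2 fold change of SF1-8 over DMSO from edgeR (x axis, bars are standard errors) for each of the 51 tested replication-dependent entries (left, coloured by class) and 10 of the 11 replacement entries (right, on a wider axis). All 12 entries that name an H4 gene lie above 0. They include an entry of H2BC18, H4C15 and H2BC21 whose transcripts in GENCODE version 29 are of H2B alone, beside an entry of H4C15 itself. The H1 entries other than H1-6 lie close to 0, and the replacement entries lie on both sides of 0.

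The classes differed in their medians. The 14 tested entries with an H2A gene had a median log2 fold change of 0.24, with 11 higher and 3 lower. The 12 with an H4 gene also had a median of 0.24, and all 12 were higher. The medians were 0.20 for the 11 entries with an H3 gene and 0.12 for the 14 with an H2B gene. Without DMSO 1 the H3 median turned to -0.018 and the H4 median was 0.067. The 5 entries of H1, the linker histone that binds outside the nucleosome core, had a median of -0.0017. Entries that name genes of several classes are counted in each of them. The entry of H2BC18, H4C15 and H2BC21 thus counts under H4, and that of H2AC19, H3C15 and H2AC20 under H3. Their transcripts in GENCODE version 29 are of H2B alone and of H2A alone. The differences between classes were not tested.

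Of the H2B genes, the entry that names H2BC11 and the long noncoding RNA AL021807 (chr6:27093612-27132795, minus strand) stood first by p. It had 14.1 and 15.4 FPKM with DMSO, and 25.3 and 21.8 FPKM with SF1-8, replicate 1 being given first here and below. Both SF1-8 libraries were above both DMSO libraries, and each pair was closer together than the groups were apart. The log2 fold change was 0.70 (SE 0.114), with an unadjusted p = 0.0015 and an adjusted p of 0.533 in the edgeR quasi-likelihood fit with Benjamini-Hochberg correction. DESeq2, which called 164 entries over the whole table where edgeR called 11, put its adjusted p at 0.00156. The entry spans 39184 bases, far more than the histone gene itself, and its reads cannot be split between H2BC11 and AL021807 here.

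Some further H2A and H2B entries had an unadjusted p under 0.05 and a smaller difference. H2BC7 (chr6:26199520-26200715) had 69.8 and 74.7 FPKM in DMSO 1 and DMSO 2, and 93.2 and 82.7 FPKM in SF1-8 1 and SF1-8 2. Its log2 fold change was 0.31 (SE 0.105). H2AC12 (chr6:27147106-27147562) had 291.6 and 340.2 FPKM with DMSO, and 395.9 and 392.7 FPKM with SF1-8. In both genes the SF1-8 libraries were the higher pair, and DMSO 1 was the lowest library. The log2 fold change of H2AC12 was 0.34 (SE 0.114). For H2AC6 (chr6:26124145-26139116), whose stem-loop and promoter are printed above, the levels were 77.9 and 80.0 FPKM with DMSO and 90.0 and 91.0 FPKM with SF1-8. The replicates of H2AC6 lay close together in both groups, and its log2 fold change was 0.22 (SE 0.0744). H2BC4 (chr6:26097663-26123926), which starts back to back with H2AC6, had 68.3 and 64.3 FPKM with DMSO and 74.3 and 75.8 FPKM with SF1-8. It was the exception among these entries in that DMSO 2, and not DMSO 1, was lowest. Its log2 fold change of 0.21 (SE 0.0612) lay between 0.20 and 0.22 whichever library was left out. The entries of H2AC6 and H2BC4 span 14972 and 26264 bases, more than a compact histone gene, and that of H2BC4 encloses H1-6 on the same strand. Each of H2BC7, H2AC12, H2AC6 and H2BC4 had an adjusted p of 0.970 in the edgeR quasi-likelihood fit with Benjamini-Hochberg correction.

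The 2 most abundant entries of each of these classes were H2BC12 and H2BC13, and H2AC18 and the entry of H2AC19. H2BC12 (chr6:27138300-27146855) had 972 and 966 FPKM with DMSO, and 1063 and 1008 FPKM with SF1-8. It was the histone entry with the highest level, and its log2 fold change was 0.12 (SE 0.0638). H2BC13 had 193.6 and 210.0 FPKM with DMSO and 222.7 and 208.6 FPKM with SF1-8, so that the groups overlapped. H2AC18 (chr1:149842188-149842736) had 633 and 751 FPKM with DMSO, and 812 and 776 FPKM with SF1-8, a log2 fold change of 0.22 (SE 0.119). The entry that names H2AC19, H3C15 and H2AC20 had 465 and 553 FPKM with DMSO, and 603 and 583 FPKM with SF1-8, a log2 fold change of 0.24 (SE 0.118). In both H2A entries, the gap between the DMSO libraries was larger than the gap from DMSO 2 to the lower SF1-8 library. H2AC18 and H2AC19 are near-identical copies, so how reads were shared between them is uncertain.

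**Figure D3:**
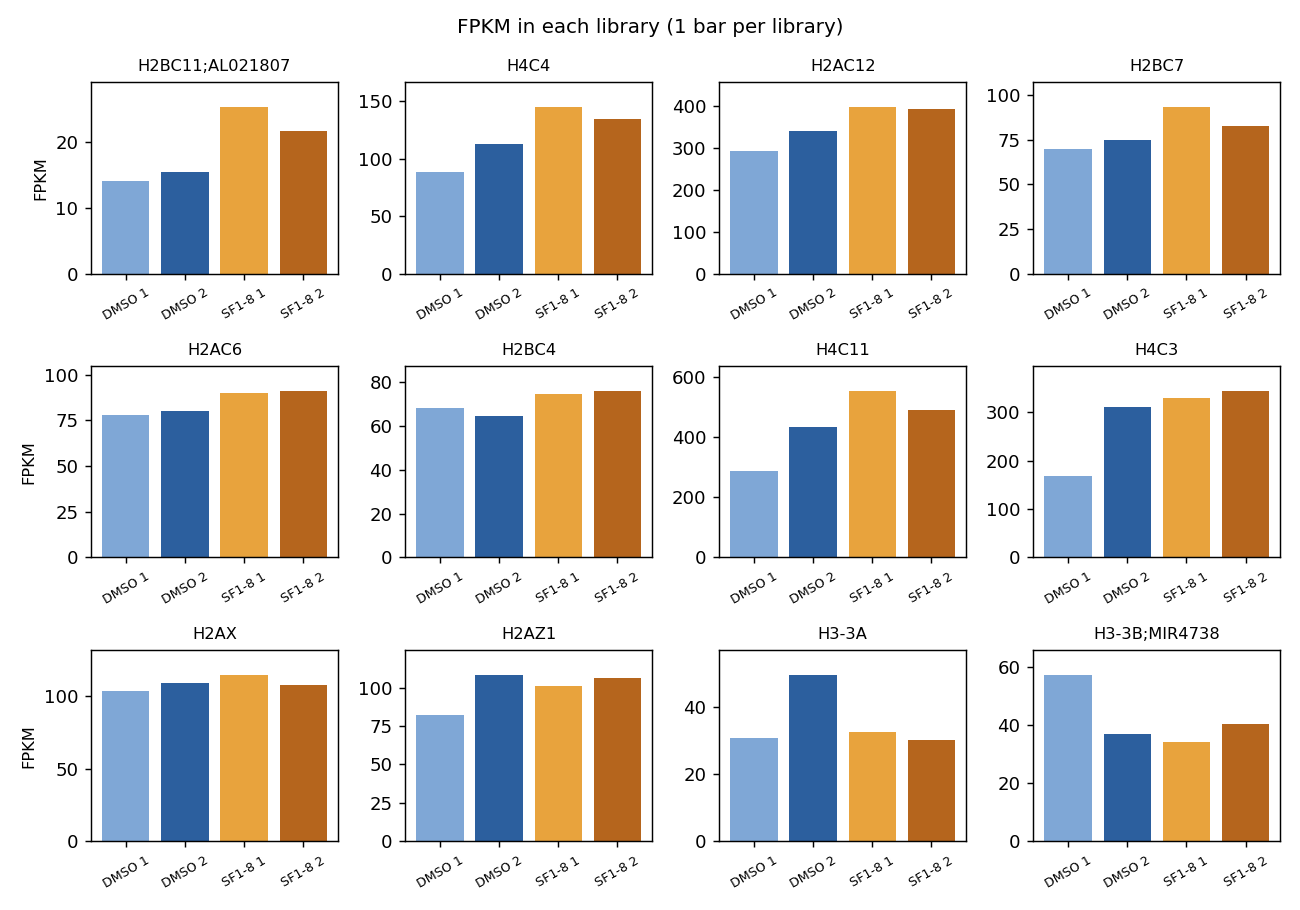
FPKM (y axis, from 0) in each of the 4 libraries (x axis, 1 bar per library) for 8 replication-dependent entries and 4 replacement histones. H2BC11, H4C4, H2AC12, H2BC7, H2AC6 and H2BC4 are higher in both SF1-8 libraries than in both DMSO libraries, H4C11 and H4C3 have their lowest value in DMSO 1, and H3-3A and H3-3B are each high in a single DMSO library.

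All H4 genes encode nearly the same protein, and all 12 tested entries that name one had a positive fitted value. By library the order was less uniform. Both SF1-8 libraries were above both DMSO libraries in FPKM in 4 of these 12. The same held for 9 of 14 entries with H2A, 7 of 14 with H2B, 5 of 11 with H3 and 0 of 5 with H1. Over all entries tested, 14.2% had this order. H4C4 (chr6:26188710-26189112, minus strand) had 88.2 and 113.1 FPKM with DMSO, and 144.6 and 134.1 FPKM with SF1-8. The groups did not overlap, and its log2 fold change was 0.49 (SE 0.162, unadjusted p = 0.0280 and adjusted p = 0.970 in the edgeR quasi-likelihood fit with Benjamini-Hochberg correction). H4C11 and H4C12 were the most abundant H4 genes. H4C11 (chr6:27824092-27824480) had 289 and 434 FPKM with DMSO, and 553 and 491 FPKM with SF1-8, a log2 fold change of 0.55 (SE 0.224). H4C12 had 299 and 494.2 FPKM with DMSO, and 559.8 and 493.8 FPKM with SF1-8, a log2 fold change of 0.43 (SE 0.264). For H4C12 the second SF1-8 library was thus level with DMSO 2. Without DMSO 1 the log2 fold changes of H4C11 and H4C12 were 0.25 and 0.079, and without DMSO 2 they were 0.93 and 0.89. The same shape was seen in H4C3 (named here after its values were seen), with 168 FPKM in DMSO 1 against 312, 330 and 344 FPKM in the other 3 libraries. Over the 12 H4 entries the median log2 ratio of DMSO 1 to DMSO 2 was -0.40, and over all entries tested it was 0.082.

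H4C14 (chr1:149832659-149839767) had the highest fold change of the replication-dependent entries and uneven DMSO replicates. It had 22.2 and 7.91 FPKM with DMSO, and 32.95 and 29.3 FPKM with SF1-8, a log2 fold change of 1.10 (SE 0.443). Here DMSO 2 was the low library. A second entry with this symbol and no protein-coding transcript, at chr1:149813294-149841051 on the same strand, went the other way, with 5.61 and 47.7 FPKM with DMSO and 0.829 and 5.58 FPKM with SF1-8. The counts of both entries summed to 5331 and 4007 with DMSO, and to 11247 and 9798 with SF1-8, without scaling for depth. In the same order the total counts of the libraries were 45522905, 64387710, 67554610 and 64305922. Their FPKM summed to 27.8 and 55.6 in the DMSO libraries, and 33.8 and 34.9 in the SF1-8 libraries, so that DMSO 2 was highest on that scale. This sum weights the entries unequally. In DMSO 2, 1401 counts of the second entry gave 47.7 FPKM, and 2606 counts of the first gave 7.91 FPKM. The order of the libraries thus differed between counts and FPKM. How reads were divided between these overlapping entries is uncertain, and the value of H4C14 rests on that division.

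The H3 entries varied, and the abundant H1 genes were close to no difference. H3C10, whose stem-loop is printed above, had 77.8 and 93.5 FPKM with DMSO, and 96.0 and 101.1 FPKM with SF1-8, a log2 fold change of 0.23 (SE 0.128). H3C2, a gene of the core histone H3 with about 547 FPKM, had 490 and 587 FPKM with DMSO, and 568 and 543 FPKM with SF1-8. Its log2 fold change was 0.068 (SE 0.124). H1-2, the most abundant linker histone gene here, had 457 and 533 FPKM with DMSO, and 462 and 478 FPKM with SF1-8. H1-4 had 283 and 334 FPKM with DMSO, and 305 and 301 FPKM with SF1-8. In both linker histone genes the SF1-8 values lay between the DMSO values, and the log2 fold changes were -0.051 (SE 0.112) and -0.0017 (SE 0.117).

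Among the 9 replication-dependent entries with a lower fitted value were entries of low level. H1-6, the linker histone of the testis, had 1.02 and 0.635 FPKM with DMSO, and 0.581 and 0.457 FPKM with SF1-8, a log2 fold change of -0.62 (SE 0.484). H3C6 had 0.621 and 0.401 FPKM with DMSO, and 0.347 and 0.410 FPKM with SF1-8, a log2 fold change of -0.38 (SE 0.331). H2AC14 was of higher level, with 60.5 and 61.3 FPKM with DMSO, and 45.5 and 57.2 FPKM with SF1-8, a log2 fold change of -0.22 (SE 0.140). At the other end, H2AC1 had 1.78 and 2.41 FPKM with DMSO, and 2.54 and 3.79 FPKM with SF1-8, a log2 fold change of 0.61 (SE 0.352). None of these 4 reached an unadjusted p of 0.05 by edgeR's quasi-likelihood test. Over the 6 tested entries with a mean under 10 FPKM the median log2 fold change was 0.048, against 0.21 over the 45 above it.

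Neighbouring genes that start back to back within 500 bases formed 9 pairs on chromosome 6, and both partners were tested in 8 of them. In 7 of these 8 pairs the partners had the same sign. H2BC11 and H2AC11, whose promoters are printed above, start 246 bases apart and had log2 fold changes of 0.70 and 0.39. H2AC11 itself had 97.5 and 126.9 FPKM with DMSO, and 147.8 and 142.6 FPKM with SF1-8. H2BC4 and H2AC6 had 0.21 and 0.22, H2BC12 and H2AC12 had 0.12 and 0.34, and H2BC8 and H2AC8 had 0.21 and 0.32. The exception was the entry of H3C4 and H2AC7, at -0.11, beside H2BC7, at 0.31. Pairs were sought among the 61 replication-dependent entries only. Outside them, H2AW and H2BU1 on chromosome 1, described below, also start back to back and had opposite signs, at 0.37 and -0.058. These genes other than those named before were chosen for their place, and 42 of all 51 entries shared the positive sign.

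The replacement histones showed no common direction. H2AX, the H2A variant that is phosphorylated at DNA breaks, had 103.9 and 109.5 FPKM with DMSO, and 114.7 and 107.7 FPKM with SF1-8. Its log2 fold change was 0.086 (SE 0.0854), and it is the replacement gene with the stem-loop printed above. H2AZ1 had 82.1 and 108.3 FPKM with DMSO, and 101.01 and 106.3 FPKM with SF1-8, a log2 fold change of 0.14 (SE 0.162). H2AZ2, whose protein is nearly the same, had 32.6 and 32.2 FPKM with DMSO, and 29.3 and 30.2 FPKM with SF1-8. Its groups did not overlap, in the opposite direction, with a log2 fold change of -0.095 (SE 0.0650). H1-10 had 40.2 and 42.5 FPKM with DMSO, and 45.1 and 42.7 FPKM with SF1-8, and was the single replacement entry with both SF1-8 libraries above both DMSO libraries. MACROH2A1, a variant of H2A with an added large domain, had 8.84 and 10.99 FPKM with DMSO, and 10.7 and 8.12 FPKM with SF1-8.

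H3-3A and H3-3B encode the same replacement H3, which is laid down outside replication. H3-3A (chr1:226061851-226071997) had 30.8 and 49.6 FPKM with DMSO, and 32.6 and 30.2 FPKM with SF1-8, a log2 fold change of -0.34 (SE 0.248). The entry of H3-3B and MIR4738 (chr17:75776434-75784607) had 57.3 and 36.8 FPKM with DMSO, and 34.3 and 40.4 FPKM with SF1-8, a log2 fold change of -0.30 (SE 0.197). Each was high in a different DMSO library. Together they had 88.2 and 86.4 FPKM with DMSO, and 66.9 and 70.6 FPKM with SF1-8, a sum that was formed after the values were seen and was not tested. Both genes have processed copies elsewhere in the genome, with which reads can be shared.

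Other replacement entries were near the limit of detection. H2AJ had 36 and 22 counts with DMSO, then 12 and 8 with SF1-8, a log2 fold change of -1.82 (SE 0.763). MACROH2A2 had 17 and 2 counts with DMSO, then 23 and 27 with SF1-8, so that its log2 fold change of 1.02 (SE 1.16) rests on a single DMSO library. H3-5 had 1.11 and 0.615 FPKM with DMSO, and 1.41 and 1.07 FPKM with SF1-8, a log2 fold change of 0.56 (SE 0.383). In none of the 11 was the adjusted p below 0.970 in the edgeR quasi-likelihood fit with Benjamini-Hochberg correction.

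The size of the difference in the replication-dependent entries depended on DMSO 1. This library had the lowest FPKM of the 4 in 37 of the 51 entries (72.5%), where 20.9% of all entries had their lowest value in it. Their median log2 ratio of DMSO 1 to DMSO 2 was -0.22. Without DMSO 1 the median log2 fold change over these 51 entries was 0.061, with 31 higher and 20 lower. Without DMSO 2 it was 0.31, with 43 higher and 8 lower. Over all replication-dependent entries that passed the filter in each refit, these medians were 0.062 and 0.30. Without DMSO 1 the class medians were 0.10 for H2A, 0.067 for H2B and -0.15 for H1, beside those of H3 and H4 given above. The number of histone entries at an unadjusted p under 0.05 was 5 without DMSO 1 (4.82% of all entries tested were), 29 without DMSO 2 (7.96%), 1 without SF1-8 1 (4.13%) and 6 without SF1-8 2 (3.58%). DMSO 1 also had the smallest total count and the highest stromal sum, and the part of either in its histone levels was not tested.

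**Figure D4:**
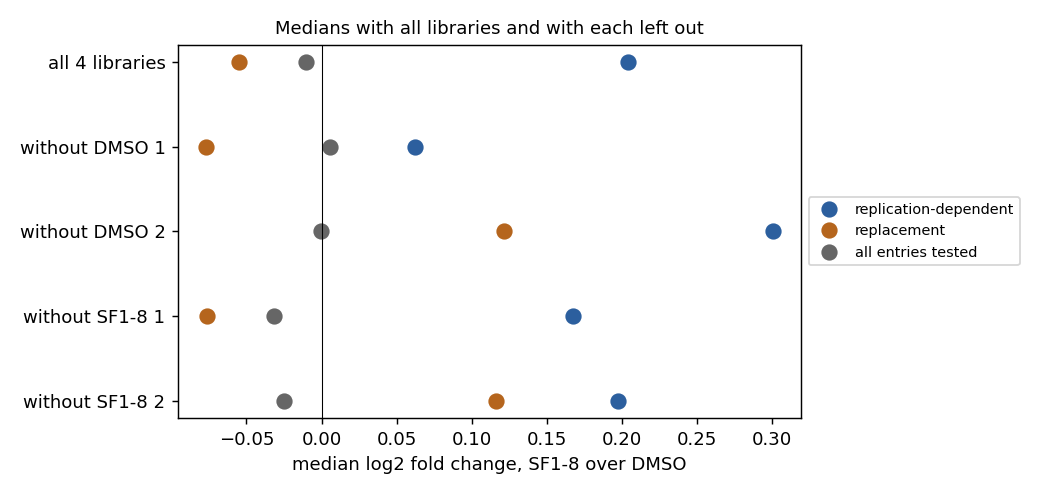
Median log2 fold change of SF1-8 over DMSO (x axis) for replication-dependent histones, replacement histones and all entries tested, with all 4 libraries and with each library left out in turn (y axis). Over the entries tested in each fit, the replication-dependent median is 0.20 with all libraries and 0.062 without DMSO 1, and the replacement median lies between -0.077 and 0.12.

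The replication-dependent median exceeded the replacement median by 0.26 on the log2 scale with all libraries. Without DMSO 1 the difference was 0.14, and without SF1-8 2 it was 0.081, since the replacement median then moved to 0.12. The replacement median is the value of 1 entry. This was MACROH2A1 with all libraries and H2AZ1 without SF1-8 2. Without DMSO 2 it was MACROH2A2, an entry near the limit of detection. The median of the replication-dependent entries, taken library by library, varied between the libraries of a group with an SD of 0.123 on the log2 scale.

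Some further cluster genes, of the HIST3 and HIST4 loci and 1 entry of HIST2 genes, are listed under newer symbols that the patterns do not match, and are described apart. H2AW had 34.7 and 50.3 FPKM with DMSO, and 55.4 and 52.6 FPKM with SF1-8, and again DMSO 1 was lowest. H2BU1 had 12.7 and 13.3 FPKM with DMSO, and 13.1 and 11.5 FPKM with SF1-8. The HIST2 entry, of H3-2 and the pseudogene H2BP2, had 0.871 and 0.616 FPKM with DMSO, and 0.371 and 0.442 FPKM with SF1-8. Its log2 fold change was -0.83 (SE 0.230), with an unadjusted p = 0.0149 and an adjusted p of 0.970 in the edgeR quasi-likelihood fit with Benjamini-Hochberg correction. H3-4 was under 1 FPKM in all libraries, and H4-16 did not pass the filter.

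Genes that make, trim and destroy histone mRNAs were taken from lists. Of 12 genes for histone mRNA synthesis and end processing, 8 were higher and 4 lower, with a median log2 fold change of 0.019 and none at an unadjusted p under 0.05. SLBP, which binds the stem-loop, had 27.4 and 38.8 FPKM with DMSO, and 38.1 and 43.8 FPKM with SF1-8, a log2 fold change of 0.32 (SE 0.202) that was 0.064 without DMSO 1 and 0.65 without DMSO 2. It too was lowest in DMSO 1, the only gene of the 12 for which this was so. NPAT, which activates transcription of the clusters, had 7.09 and 6.08 FPKM with DMSO, and 6.65 and 6.24 FPKM with SF1-8. CASP8AP2, a factor of end processing, had 4.67 and 5.03 FPKM with DMSO, and 4.57 and 4.10 FPKM with SF1-8. Of 4 genes for histone mRNA degradation, 2 were higher and 2 lower.

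Of 22 genes of S phase and DNA replication, 18 were higher with SF1-8, and the median log2 fold change was 0.058. A single entry of the 22 had an unadjusted p under 0.05 (4.33% of all entries tested did), that of PRIM1, a primase subunit, which also names NACA. It had 17.98 and 21.6 FPKM with DMSO, and 14.5 and 15.9 FPKM with SF1-8, a log2 fold change of -0.36 (SE 0.129). Since the entry is shared with NACA, it does not give the level of PRIM1 alone. In 5 of the 22 genes DMSO 1 was the lowest library. Of 23 genes of histone chaperones, which carry histones to DNA, 15 were higher and 8 lower, with a median of 0.042 and none at an unadjusted p under 0.05. No gene of these 4 lists passed an adjusted p of 0.05 in the edgeR quasi-likelihood fit with Benjamini-Hochberg correction.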

How the data were processed

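RNA-seq was available for 4 libraries of K562-U2AF1-S34F cells. Per the labels, total RNA was depleted of ribosomal RNA, and the submitters' processing notes name cutadapt, FastQC, Bowtie2, HISAT2, StringTie and hg38. For each entry, the authors deposited an FPKM value, in which 0.0001 stands for 0, and a count. The deposited counts are whole numbers whose commonest value above 0 is 4, so they were taken as estimated counts, and no counting error was computed. The 2095 entries with no gene name were left out.

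Counts were filtered by filterByExpr (26167 entries left) and then normalized by TMM. They were tested over the whole table by edgeR's quasi-likelihood test (edgeR 4.0.16, R 4.3.3) with Benjamini-Hochberg adjustment. Scripts were tested on simulated data. Each SE, in the text and as a bar, was worked out from edgeR's test, as the absolute log2 fold change over the square root of the F statistic. Medians over members are descriptions without a test. The members and lists were chosen with earlier results of these data known.

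Named were all tested replacement histones but 1, whose values are not reported here, the 2 most abundant entries of each class, entries with an unadjusted p under 0.05, the 3 highest and 3 lowest fold changes of the replication-dependent entries, SLBP, NPAT and CASP8AP2, and any gene of the pathway lists with an unadjusted p under 0.05. Other names were chosen after their values were seen, or for their position or sequence. Stem-loops come from GENCODE version 29 transcripts (GRCh38), and promoters from RefSeq. Alternatives were DESeq2 1.42.0, limma 3.58.1 on log2 FPKM with a pseudocount of 1 or 0.1, no filter, other scalings, a replicate block, other groupings of the entries, and each library left out. Proteins and splicing were not analysed here.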

Additional observations from a re-analysis of the deposited data

How the results depend on the processing

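With 2 libraries per group, precision is limited by the spread between replicates, and 1 library moved most summary values. The number of entries called over the whole table, 11, was 164 with DESeq2, 31 with no filter, 0 with limma at either pseudocount, and between 0 and 30 with a library left out. Histone entries at an unadjusted p under 0.05, 6 in all, were 10 with no filter and between 1 and 29 with a library left out. Over the whole table, 4.33% of 26167 entries were at this level in the main fit, and 3.91% of 37155 with no filter. H4C11 and H4C14, tested in both fits, had an unadjusted p of 0.0564 and 0.0547 by edgeR's quasi-likelihood test in the main fit. With no filter these values were 0.0246 and 0.0190. The median log2 fold change of replication-dependent histones lay between 0.062 and 0.30 with a library left out and stayed positive. That of replacement histones was 0.049 with no filter, -0.098 with total-count scaling, 0.015 with single-gene entries and between -0.077 and 0.12 with a library left out. The difference of the medians was 0.16 with no filter and between 0.081 and 0.24 with a library left out. Total-count scaling moved the median of all entries to -0.058.

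With the replicate number as a block, 0 entries were called over the whole table and 8 histone entries had an unadjusted p under 0.05. In that fit 3.71% of all 26167 entries were at this level. The differences between libraries 1 and 2 of the groups correlated with r = 0.0165 over 26167 entries, those of low count included. The labels do not say whether libraries of the same number were made together, and this was not tested. Under the block H1-4 was at 0.0071, and it was at 0.0011 with DESeq2 and 0.0052 with no filter. NPAT was at -0.023 and -0.026 with limma at a pseudocount of 1 and 0.1, -0.015 with upper-quartile scaling and -0.049 with total-count scaling. Of the 35 named entries examined one by one, 8 changed the sign of the log2 fold change with a library left out, and more of the 51 replication-dependent entries were lower without DMSO 1 (20) than with all libraries (9). It lay between -0.077 and 0.41 for H2AZ1, -0.27 and 0.16 for MACROH2A1, -0.67 and 0.099 for H3-3A, -0.54 and 0.0088 for H3-3B, -0.20 and 0.11 for H1-2, -0.15 and 0.17 for H1-4, -0.093 and 0.25 for H3C2, and -0.063 and 0.073 for NPAT. The cause of these changes was not tested. The entry of H2BC11 passed the adjusted threshold with DESeq2 alone, at a log2 fold change of 0.70.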
